A study of Mus musculus with 2 samples.

Results

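Integrins are the receptors by which cells hold on to extracellular matrix, and focal adhesion proteins couple their cytoplasmic tails to actin. A set of 36 such genes was compared between control and H2O2-senescent AML12 cells, of 35275 genes in the count table. The rule lists them by name and uses no measured value, although earlier results of these data were known when the set was proposed. Ensembl identifiers were paired with GENCODE M21 symbols, and all 36 were in the table. The set holds 21 integrin genes, of which 13 encode α and 8 encode β subunits, and 15 genes of intracellular adhesion proteins.

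AML12 is a non-transformed mouse hepatocyte line that carries a TGFα transgene, and its labels give strain CD-1, tissue Liver, gender Male and age 3 months for both conditions. Control cells were untreated. Senescent cells received H2O2 for 1 h a day over 6 days, at 1 mM first and at 750 μM on the later 5 days, with recovery periods of 23 h. RNA of 3 samples was pooled for each library, and 1 library was sequenced per condition. There was therefore no replicate, no test between conditions was made, and every ratio compares 2 libraries and not 2 conditions. The control library held 28021941 counted reads and the senescent library 25738075. Intervals and floors cover the counting error of reads only, and no variation between cultures. PCR reads were not counted as molecules, so even the counting error may be larger than shown. In bulk RNA of this kind, fewer cells with a transcript cannot be told apart from less transcript per cell.

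An integrin is a dimer of an α and a β subunit, and the pair sets the ligand. The α3, α6 and α7 subunits with β1, and α6 with β4, bind laminins. The α1, α2, α10 and α11 subunits with β1 bind collagens, whereas α5β1, α8β1 and the αv dimers recognise the RGD tripeptide of fibronectin, vitronectin and related proteins. Talins and kindlins bind β tails and switch the receptor on, ILK with PINCH and parvin links the tail to actin, FAK and Src signal from the adhesion, and vinculin, zyxin and filamins connect it to actin filaments. Hepatocytes in liver lie against a sparse matrix, and integrin α1β1 is their typical collagen receptor, while α6β4 is typical of bile duct and other basal epithelia.

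The laminin receptors Itga6 and Itgb4 and the actin linker Flnc were higher in the senescent library, and the collagen receptor Itga1 and the RGD receptor subunits Itgb3 and Itgb8 were lower, the last on 11 reads only. Here higher or lower means a log2 ratio of senescent over control past 1.5 in either direction, a 95% interval without 0 and at least 10 reads over both libraries. Of the 36 genes, 30 had at least 10 reads, 6 did not, and 2 of those 6 had no read at all. Of the 30, 3 were higher and 3 lower. Over all 14383 genes with at least 10 reads, 2.71% were higher and 5.6% lower. With the threshold at 1, Itga2 joined the higher genes and Tln2 and Zyx the lower ones, which made 4 and 5. The shares of all genes past 1 were 5.09% higher and 9.98% lower. The median log2 ratio of the 30 genes was -0.14, and that of all genes with at least 10 reads was -0.02. The intervals of 11 of the 30 genes lay above 0 and those of 16 below, where the shares over all genes were 34% and 34.6%. Such intervals narrow as reads increase, so ratios as small as -0.11 (Lims1 and Bcar1) count as below 0. The 30 genes were not matched to all genes by read count, so these shares are not directly comparable.

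**Figure D1:**
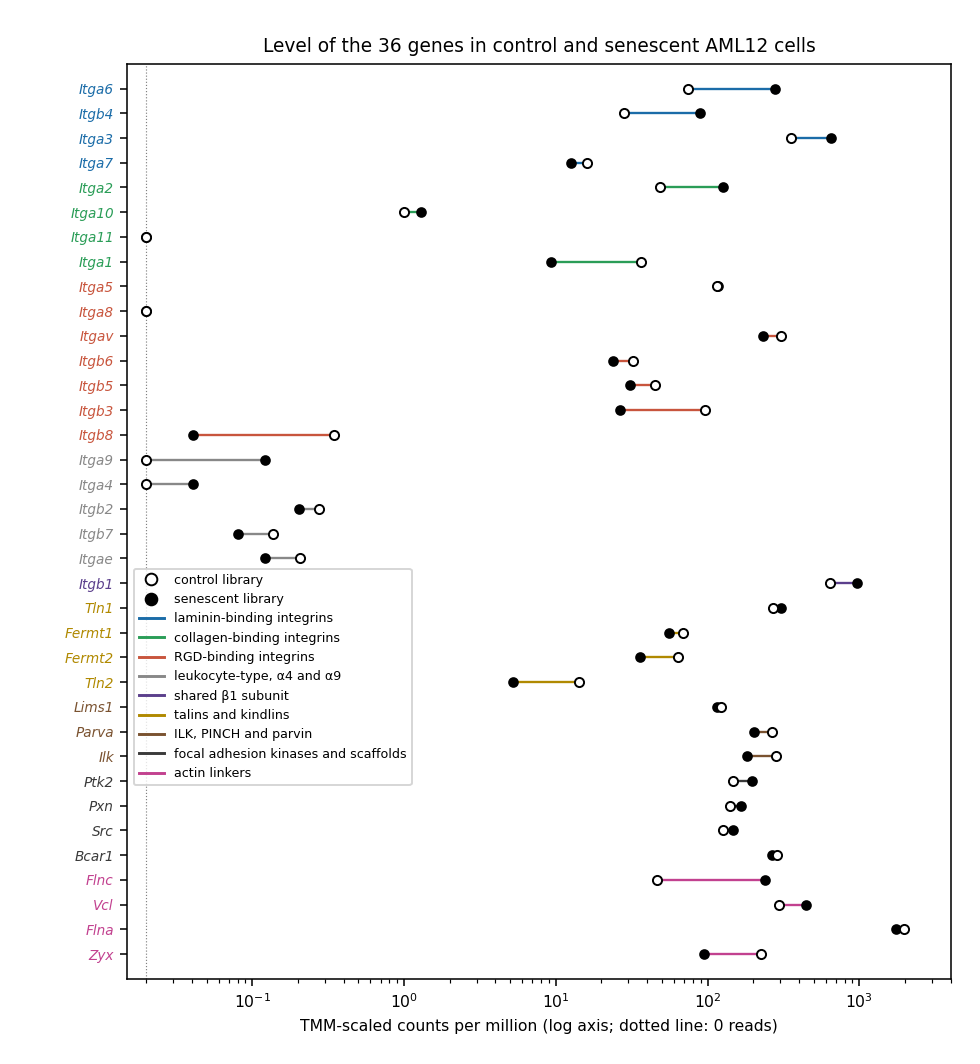
TMM-scaled level (CPM, log axis) of each of the 36 genes in the control library (open circles) and the senescent library (filled circles), joined by a line coloured by role; circles on the dotted line had 0 reads. Flnc, Itga6 and Itgb4 lie to the right in the senescent library, and Itga1 and Itgb3 to the left.

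Among laminin-binding integrins, 3 of 4 genes had more scaled reads in the senescent library, and the median log2 ratio was 1.26. The intervals of 3 lay above 0 and that of 1 below, against 34% and 34.6% over all genes with at least 10 reads. Past 1.5, 2 were higher and 0 lower, where the shares over all genes were 2.71% and 5.6%. Itga6 (ENSMUSG00000027111; GRCm38 chr2:71745616-71858416, plus strand) encodes the α subunit shared by α6β1 and α6β4. Where read counts are given in pairs, the control comes first. Itga6 had 2168 control reads and 6913 senescent reads, giving a log2 ratio of 1.90 (95% interval from 1.83 up to 1.97). Itgb4 (chr11:115974709-116008412, plus strand), the long-tailed β subunit that anchors hemidesmosomes to keratin, had 823 and 2196 reads, giving a log2 ratio of 1.64 (1.53 to 1.76). Both subunits of α6β4 were thus higher together. In reads per kilobase of exon, scaled to library size (RPKM), Itga6 was 2.05 times Itgb4 in control cells and 2.45 times in senescent cells. Itga3 (chr11:95044474-95076801, minus strand), partner of β1 in binding laminins of basement membranes, had 10367 and 16234 reads at a log2 ratio of 0.88 (0.84 to 0.91). It remained the most abundant α subunit per length, at 62.4 RPKM in control cells and 115 in senescent cells. Itga7, better known from muscle, went the other way, with 467 and 310 reads at a log2 ratio of -0.36 (-0.57 to -0.15).

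The collagen receptors moved apart. Itga1 (chr13:114953096-115101964) had 1062 control reads and 230 senescent reads, giving a log2 ratio of -1.97 (-2.19 to -1.77). Itga2 (chr13:114833081-114932100), which pairs with β1 as a receptor for fibrillar collagens, had 1403 and 3154 reads at a log2 ratio of 1.40 (1.31 to 1.49). Itga2 was 3.44 times Itga1 per length in control cells and 35.8 times in senescent cells. Itga10, a collagen receptor of cartilage, had 29 and 32 reads, giving a log2 ratio of 0.36 with an interval from -0.40 to 1.15 that holds 0. Itga11, a fibroblast receptor, had 0 reads in both libraries. A count of 0 allows up to 3 reads, which is a CPM (counts scaled to library size) of 0.103 for control and 0.121 for senescent cells. The class median of 0.36 is the value of Itga10, and it was -0.29 when at least 100 reads were required, so no direction is given for the class.

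Itga1 and Itga2 are neighbours on the minus strand of chromosome 13. Their starts lie 169864 bases apart and 20995 bases separate their bodies. Pelo, which encodes a ribosome rescue factor, lies within the Itga1 gene and had 954 and 988 reads, giving a log2 ratio of 0.28 (0.15 to 0.41). Among these 3 genes, Itga1 alone was lower. An annotated transcript model, Gm49395, shares exon bases with Itga1 on the same strand and is not in the count table.

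The 250 bases before a RefSeq start are printed for Itga1 and Itga2, the neighbours that differ in direction, for Flnc, the gene with the largest log2 ratio of the set, and for Vcl, which holds motif matches. Sequences are from RefSeq on GRCm38.p6, read 5′ to 3′ on the gene's strand, with motif matches in capitals. The windows are chr13:115101965-115102214 for Itga1 and chr13:114932101-114932350 for Itga2, both minus strand. Those of Flnc and Vcl are chr6:29432903-29433152 and chr14:20929148-20929397, both plus strand. Flnc has a second RefSeq start downstream, at the start of the GENCODE gene, and its window (chr6:29433006-29433255) is not printed because it overlaps the transcript from the first start.
Itga1: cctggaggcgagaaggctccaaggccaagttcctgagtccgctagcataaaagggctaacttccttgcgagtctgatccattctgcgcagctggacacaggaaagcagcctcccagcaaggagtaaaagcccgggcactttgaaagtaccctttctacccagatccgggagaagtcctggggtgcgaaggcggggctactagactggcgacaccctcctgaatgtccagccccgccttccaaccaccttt
Itga2: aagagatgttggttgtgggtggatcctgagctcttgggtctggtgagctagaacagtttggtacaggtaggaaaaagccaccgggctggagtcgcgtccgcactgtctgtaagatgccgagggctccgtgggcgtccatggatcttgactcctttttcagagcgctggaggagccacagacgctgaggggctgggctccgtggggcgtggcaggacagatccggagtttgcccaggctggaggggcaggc
Flnc: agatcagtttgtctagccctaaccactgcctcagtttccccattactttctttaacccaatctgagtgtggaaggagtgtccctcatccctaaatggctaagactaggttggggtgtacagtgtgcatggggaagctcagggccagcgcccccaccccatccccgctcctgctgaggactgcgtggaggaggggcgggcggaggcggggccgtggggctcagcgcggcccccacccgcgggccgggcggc
Vcl: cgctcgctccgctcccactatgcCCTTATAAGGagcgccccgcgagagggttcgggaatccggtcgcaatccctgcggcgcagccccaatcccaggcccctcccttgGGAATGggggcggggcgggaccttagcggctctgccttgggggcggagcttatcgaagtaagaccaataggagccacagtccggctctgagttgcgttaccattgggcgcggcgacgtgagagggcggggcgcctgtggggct
The motifs searched on both strands were AP-1 (TGANTCA), TEAD (GGAATG) and the CArG box bound by serum response factor, in windows that run from 250 bases before to 50 after each start. Vcl held a CArG box whose first base lay 227 bases before the start and a TEAD match at 143. The other CArG boxes lay at 204 in Fermt2 and at 50 in an Itgb6 window. These genes had negative log2 ratios (-0.82 and -0.44), whereas that of Vcl was 0.60. AP-1 letters lay at 121 in Zyx, whose log2 ratio was -1.24. Itga1, Itga2 and the printed Flnc window held none of them wholly before the start. A TEAD match began on the last printed base of Flnc and ran past that start. The same site lay at 104 in the second Flnc window. RefSeq windows were found for 26 of the 36 genes, 33 windows in all. AP-1 letters were in 3, TEAD letters in 6 and CArG letters in 3 of the 33, against 7.81%, 14.7% and 1.63% of all 32851 windows. The 6 windows with TEAD letters belonged to 5 genes, because both Flnc windows hold the same site. A match describes letters and not a bound site.

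Of 7 RGD-binding integrin genes, none was higher in the senescent library by the threshold of 1.5 and 2 were lower. The shares over all genes with at least 10 reads were 2.71% and 5.6%. The median log2 ratio of the 6 with at least 10 reads was -0.50. Itgb3 (chr11:104608000-104670476, plus strand), the β subunit of the vitronectin receptor αvβ3, had 2812 control reads and 656 senescent reads, giving a log2 ratio of -1.87 (-2.00 to -1.75). Itgav, the α subunit of all αv dimers, had 8813 and 5770 reads at a log2 ratio of -0.38 (-0.43 to -0.33). The per-length ratio of Itgav to Itgb3 was 1.72 in control cells and 4.83 in senescent cells. Itgb5, whose αv dimer binds vitronectin, had 1308 and 763 reads (log2 ratio -0.55, interval -0.68 to -0.42). Itgb6, an epithelial subunit whose αv dimer activates latent TGFβ, had 938 and 588 reads (log2 ratio -0.44, interval -0.60 to -0.29). Itgb8 had 10 and 1 reads, giving a log2 ratio of -2.30 with an interval from -8.53 to -0.28, so the call rests on 11 reads. It was lost with at least 100 reads required, with a prior count of 5 (log2 ratio -1.23) and with an assumed coefficient of variation of 0.4. Itga5, the fibronectin receptor subunit, had 3348 and 2893 reads at a log2 ratio of 0.02 (-0.05 to 0.09), nearest to 0 among those with at least 10 reads. Its sign was negative under total-count scaling (-0.09) and upper-quartile scaling (-0.02). Itga8 had no read.

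Itgb1, the β subunit shared by laminin, collagen and fibronectin receptors, had 18545 control reads and 23966 senescent reads, giving a log2 ratio of 0.60 (0.57 to 0.63). Leukocyte-type subunits and α4 and α9 were near the floor. Itga4 had 0 and 1 reads, Itga9 0 and 3, Itgae 6 and 3, and Itgb7 4 and 2. Itgb2, the common β subunit of leukocyte integrins, had 8 and 5 reads, with a log2 ratio of -0.39 and an interval from -2.41 to 1.35. None of these 5 genes differed beyond counting error.

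**Figure D2:**
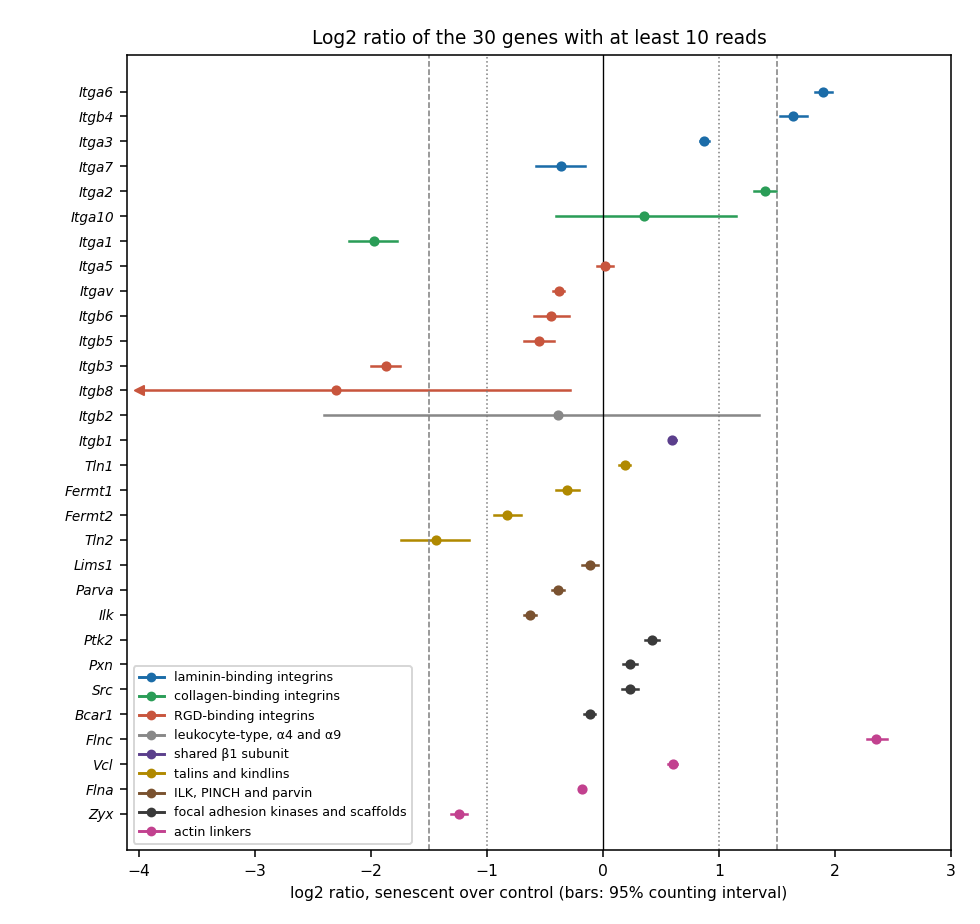
Log2 ratio of senescent over control (points) with 95% counting intervals (bars) for the 30 genes with at least 10 reads, coloured by role; dotted lines mark 1 and dashed lines 1.5 in either direction, and the arrow marks an interval that runs off the axis. Laminin receptors reach 1.90 (Itga6), while RGD receptors lie between -2.30 and 0.02.

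Summed over the 13 α subunits, the per-length level was 133 RPKM in control cells and 211 in senescent cells. Laminin-binding subunits made up 54.6% of it in control cells and 69.7% in senescent cells, with counting standard errors of 0.312 and 0.247 percentage points. RGD-binding subunits made up 38.7% and 21.5% (standard errors 0.303 and 0.221). Their level was 51.5 RPKM in control cells and 45.3 in senescent cells, so the share differed more than the level, because the sum was larger. Collagen-binding subunits made up 6.70% and 8.80% (0.142 and 0.147), and with the longest transcript as gene length these were 5.93% and 6.76%. Itga3 held 46.9% of the α level in control cells and 54.3% in senescent cells, and Itga6 held 6.20% and 14.6%. The share of Itgav was 21.2% and then 10.3%, and that of Itga5 was 17.5% and then 11.2%. The share of Itga5 was thus smaller at a nearly equal level, because the sum was larger.

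Over the 8 β subunits the level was 194 RPKM in control cells and 266 in senescent cells. Itgb1 made up 80.5% and 89.0%. The RGD-binding β subunits together made up 17.3% and 6.20%, of which Itgb3 was 8.44% and 1.69%. Itgb4 made up 2.08% and 4.75%. Per length, Itgb1 was 9.54 times Itgb3 in control cells and 52.8 times in senescent cells.

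**Figure D3:**
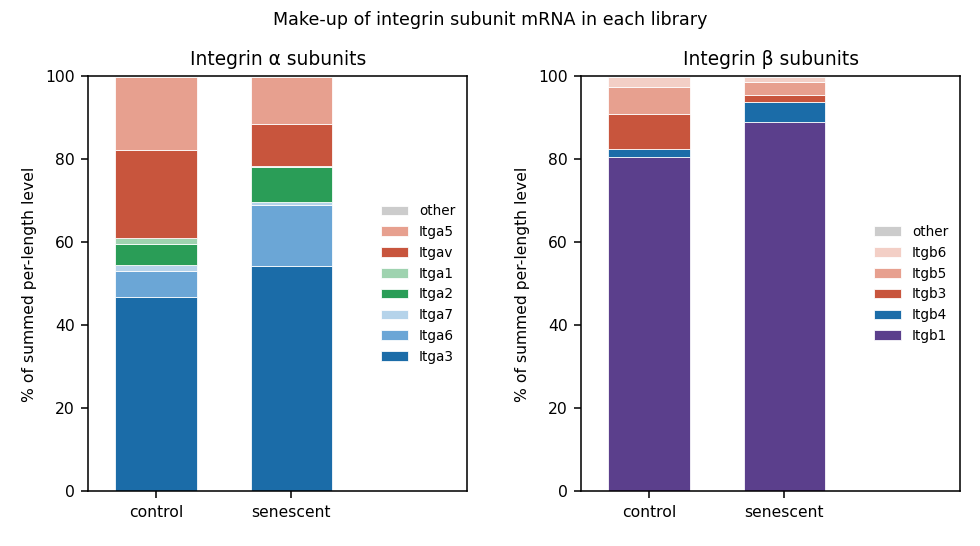
Share of the summed per-length level (RPKM) that each integrin α subunit (left) and β subunit (right) held in the control and senescent libraries, with blue for laminin-binding, green for collagen-binding, red for RGD-binding subunits and purple for Itgb1. The blue part of the α bar is 54.6% in control cells and 69.7% in senescent cells.

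Of the proteins that bind β tails, the main talin lay near 0 and the minor talin and both kindlins had negative log2 ratios. Tln1, the talin of most cells, had 7825 and 7610 reads at a log2 ratio of 0.19 (0.14 to 0.24). Tln2 had 411 and 129 reads at a log2 ratio of -1.44 (-1.74 to -1.15). Tln1 was 35.7 times Tln2 per length in control cells and 110 times in senescent cells. Among kindlins, the widely expressed Fermt2 had 1861 and 896 reads (log2 ratio -0.82, interval -0.94 to -0.71). The epithelial Fermt1 had 2006 and 1383 reads (log2 ratio -0.31, interval -0.41 to -0.21).

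All 3 genes of the ILK, PINCH and parvin complex had negative log2 ratios, with none past 1. Their 3 intervals lay below 0, as did 34.6% of the intervals over all genes with at least 10 reads. Ilk, a pseudokinase scaffold, had 8252 and 4547 reads (log2 ratio -0.63, interval -0.68 to -0.58). Parva, which binds actin, had 7687 and 5018 reads (log2 ratio -0.39, interval -0.44 to -0.33). Lims1, which encodes PINCH1, had 3594 and 2842 reads (log2 ratio -0.11, interval -0.18 to -0.04), and its distance from the all-gene median was smaller still. Ilk shares 2106 exon bases with Taf10 on the opposite strand, which had 4134 and 2947 reads, and the use of strand in counting is not given in the sources used here.

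The kinases and scaffolds had log2 ratios from -0.11 to 0.42, with the intervals of 3 genes above 0 and that of 1 below. Over all genes with at least 10 reads, 34% of intervals lay above 0 and 34.6% below. Ptk2, which encodes FAK, had 4273 and 4885 reads (log2 ratio 0.42, interval 0.36 to 0.48). Src had 3650 and 3660 reads (log2 ratio 0.23, interval 0.17 to 0.30). The scaffold genes Pxn and Bcar1, which encode paxillin and p130Cas, had log2 ratios of 0.24 and -0.11. The median of these 4 genes was 0.23.

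The actin linkers differed most among themselves. Flnc (chr6:29433256-29461883, plus strand), the filamin of striated muscle, had 1351 control reads and 5921 senescent reads, giving a log2 ratio of 2.36 (2.28 to 2.45). Flna, the filamin of most cells, had 57333 and 43218 reads at a log2 ratio of -0.18 (-0.20 to -0.16). Flna was 42.4 times Flnc per length in control cells and 7.30 times in senescent cells. Vcl, which encodes vinculin, had 8558 and 11076 reads (log2 ratio 0.60, interval 0.56 to 0.64). It shares 2090 exon bases with Ap3m1 on the opposite strand, which had 2794 and 2955 reads. Zyx, a LIM protein of mature adhesions and stress fibres, had 6538 and 2359 reads (log2 ratio -1.24, interval -1.31 to -1.17). Zyx shares 236 exon bases with Epha1 on the opposite strand, which had 334 and 23 reads.

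**Figure D4:**
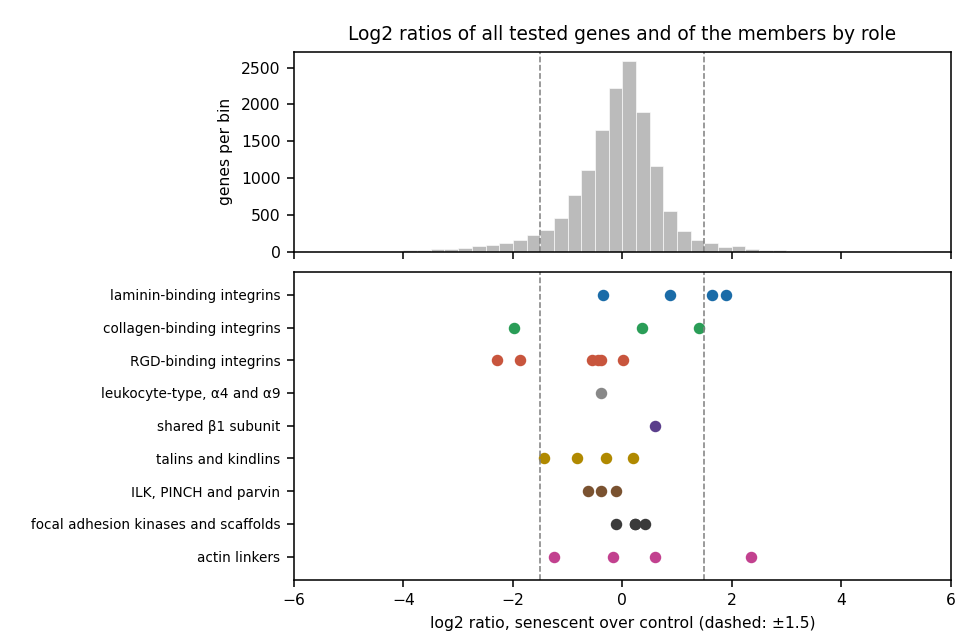
Histogram of log2 ratios, senescent over control, for the genes with at least 10 reads in bins of 0.25 (top), above the ratios of the 30 measured adhesion genes by role (bottom); dashed lines mark 1.5 in either direction. Of the 30 genes, 3 lie beyond each dashed line.

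Of 45 other adhesion adaptors listed, 41 had at least 10 reads, 1 was higher and 5 lower past 1.5, and the median log2 ratio was -0.09. Over all genes with at least 10 reads, 2.71% were higher and 5.6% lower. Parvb, the second parvin, had 229 and 566 reads, giving a log2 ratio of 1.53 (1.31 to 1.76). Per length, Parva was 14.6 times Parvb in control cells and 3.85 times in senescent cells. Actn1, the α-actinin of stress fibres, had a log2 ratio of 1.04 (1.01 to 1.07), and Actn4 one of 0.21. The Cas family scaffold Nedd9 had 1053 and 110 reads, giving a log2 ratio of -3.02 (-3.33 to -2.74). Rsu1, which binds PINCH1, had 796 and 176 reads (log2 ratio -1.94), and the LIM protein gene Csrp1 had 12821 and 3048 (log2 ratio -1.84). Tns1, a tensin, had a log2 ratio of -1.06, and Tns3 one of -0.16.

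Of the hemidesmosome and tetraspanin genes, 8 of 9 had at least 10 reads, none was past 1.5 and the median log2 ratio was -0.15. Plec, which encodes the plectin that binds the β4 tail, had 13307 and 25955 reads, giving a log2 ratio of 1.19 (1.16 to 1.22). Cd151, the tetraspanin partner of α3β1 and α6β4, had a log2 ratio of -0.13. Of 15 actin genes known as targets of serum response factor, 14 had at least 10 reads, none was higher and 2 were lower past 1.5, and the median was -0.14. The shares of all genes past 1.5 were 2.71% higher and 5.6% lower. Myl9 had 14 and 0 reads, which is at least 3.98-fold lower. Tpm2 had a log2 ratio of 1.51 from 3 and 9 reads, but its interval from -0.19 to 4.34 holds 0. Fhl2 had a log2 ratio of 1.21 and Cnn2 one of -1.14.

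The ligand genes were read in the same way, beside shares over all genes of 2.71% higher and 5.6% lower past 1.5. Past 1 these shares were 5.09% and 9.98%. Laminin chains had a median log2 ratio of 0.52 over the 9 of 11 with at least 10 reads, with none past 1.5 and 2 past 1. Lamb3, a laminin β chain of epithelia, had a log2 ratio of 1.04, and the α chain gene Lama3 had only 6 and 15 reads. Lamc1 had a log2 ratio of 0.52 and Lama5 one of 0.17. Of 15 collagen genes, 9 had at least 10 reads, with 2 higher and 2 lower past 1.5 and a median of 0.39. The basement membrane collagen genes Col4a2 and Col4a1 had log2 ratios of 1.16 and 0.39. Col6a3 had 1 and 38 reads, giving a log2 ratio of 4.46 with an interval from 2.91 to 10.8. The chains that assemble with it went the other way, with 322 and 107 reads for Col6a1 (log2 ratio -1.35) and 76 and 22 for Col6a2 (log2 ratio -1.52). Col1a1 had 21 and 1 reads (log2 ratio -3.29, interval -9.53 to -1.53).

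RGD ligand genes had a median log2 ratio of -0.53 over 12 genes with at least 10 reads, of 16 in the table and 19 listed. Past 1.5, 1 was higher and 4 were lower, where the shares over all genes were 2.71% and 5.6%. The intervals of 5 of the 12 lay above 0 and those of 6 below, against 34% and 34.6% over all genes. Fn1, which encodes fibronectin, had 29310 control reads and 10127 senescent reads, giving a log2 ratio of -1.30 (-1.34 to -1.27). Vtn, which encodes vitronectin, had 95 and 10 reads (log2 ratio -2.91, interval -4.12 to -2.08). The matricellular gene Ccn1 had 2506 and 583 reads (log2 ratio -1.87), and Spp1, which encodes osteopontin, 25430 and 10580 (log2 ratio -1.04). Ccn2, of the same list, went the other way from Ccn1, with 19633 and 26898 reads (log2 ratio 0.68). Tnc, which encodes tenascin-C, had 148 and 367 reads and was the 1 gene higher past 1.5 (log2 ratio 1.53).

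**Figure D5:**
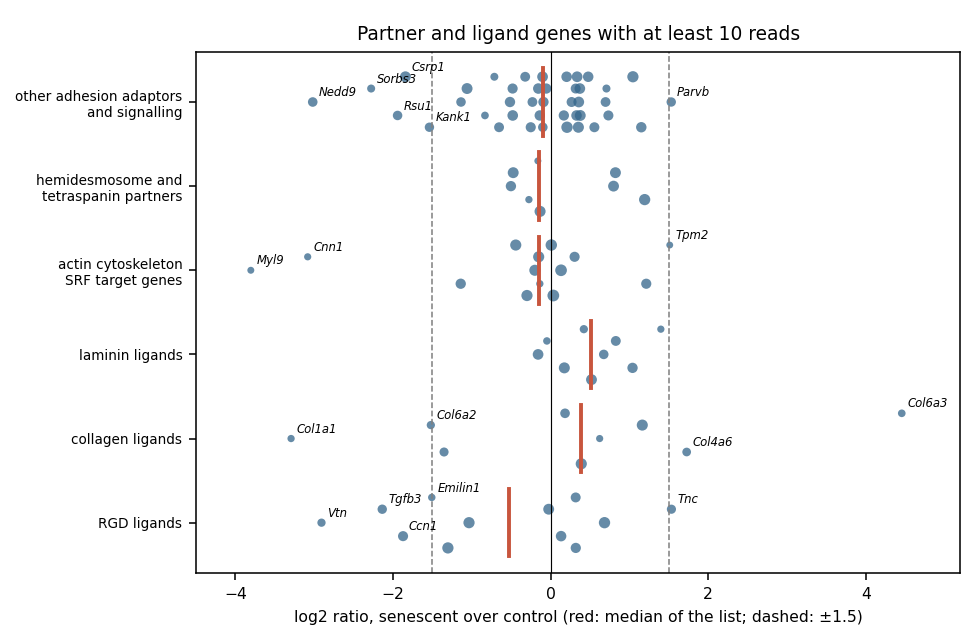
Log2 ratio, senescent over control, of partner and ligand genes with at least 10 reads by list, with point size growing with read count, red bars at the list medians and names for genes past 1.5. The median of laminin ligands is 0.52 and that of RGD ligands -0.53.

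Markers of the cell type were checked beside these values. Past 1.5, the shares over all genes with at least 10 reads were 2.71% higher and 5.6% lower. Hnf4a, the hepatocyte transcription factor, had a log2 ratio of 0.14, Krt8 one of 0.51 and Krt18 one of 0.82, whereas Alb had 32076 and 2917 reads (log2 ratio -3.23). Of the 10 hepatocyte markers in the table, 2 were lower past 1.5, Alb and Apoa1 (2026 and 197 reads), and 0 were higher. Their summed CPM was 8608 for control and 10266 for senescent cells, and 3108 and 1972 without Krt8 and Krt18. Of 8 bile duct markers, 1 was higher, Cftr with 44 and 176 reads, and 0 were lower, and the summed CPM was 1998 and 1487. The bile duct keratin Krt19 had a log2 ratio of -0.03. All 10 fibroblast and stellate markers together had 27 and 10 reads, with Col1a1 at 21 and 1 and Pdgfrb at 0 and 2. The 8 endothelial markers had 14 and 37 reads, with Pecam1 at 4 and 4, Kdr at 0 and 5, and Vwf at 8 and 24, the last being higher past 1.5. The 10 leukocyte and macrophage markers had 5618 and 2000 reads, of which 5551 and 1879 were on Cd14. Apoa1, Cftr, Kdr, Vwf and Cd14 were named after their values were seen. Ptprc, the leukocyte marker, had 27 and 76 reads and was higher past 1.5 (log2 ratio 1.68, interval 1.07 to 2.41). The part of the lower hepatocyte product Alb in the adhesion values was not tested.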

How the data were processed

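RNAseq of poly(A) RNA was available for 1 control and 1 senescent library, each from pooled RNA. The authors deposited un-normalized read counts per Ensembl gene, and their processing notes name CASAVA, STAR, DESeq2, edgeR and mm10. The counting tool, its annotation and its use of strand are not given in the sources used here. The first letters of the sample titles tied columns to conditions. Symbols and positions came from GENCODE M21 (GRCm38), which paired 97.8% of identifiers. Counts were scaled by TMM (edgeR 4.0.16, R 4.3.3). Log2 ratios used a prior count of 1, shared out by library size, and Clopper-Pearson 95% intervals (scipy 1.17.1, Python 3.11.15). RPKM used the union of exons. Without replicates the variation between cultures could not be estimated with edgeR or DESeq2, so no p-value was computed. The script was tested on simulated data, in which counting error alone produced false calls only among genes with few reads, but with a coefficient of variation of 0.4 between libraries about as many unchanged genes passed the fold rule as passed it in the real data. DESeq2 1.42.0 size factors, upper quartiles, total counts, other filters, prior counts, thresholds and assumed variation were the alternatives. With blastn 2.17.0, 5 of the genes shared at least 300 bases at 95% identity with another gene, and 0 with each other, and exons of 11 overlapped another gene. Of these 11, 9 overlapped on the opposite strand only, Itgb4 among them, and 2, Itga1 and Itga10, on the same strand.

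The genes, lists and tests were chosen with earlier results of these data known. All 36 genes could be named. From each pathway list, up to 6 genes past a log2 ratio of 1 with at least 10 reads could be named, with a fixed set of adaptors and ligands whatever their values, and of the markers only the defining genes. Pelo, Gm49395, Taf10, Ap3m1 and Epha1 were named for their position, and Ccn2 was named after its value was seen. Single values of a few listed genes are left out.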

Additional observations from a re-analysis of the deposited data

How the results depend on the processing

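The genes past 1.5 were Itga6, Itgb4 and Flnc (higher) and Itga1 and Itgb3 (lower) under every alternative except a threshold of 2, which left 1 higher gene (Flnc) and 1 lower gene (Itgb8). Read filters and prior counts can scarcely move genes with as many reads as Itga6, Itgb4, Flnc, Itga1 and Itgb3. A call kept under these settings is therefore no support for a difference between conditions. Itgb8, with 11 reads, was lost with at least 100 reads, with a prior count of 5 and with an assumed coefficient of variation of 0.4. Total-count scaling moved the median of all genes by -0.11, added Tln2 to the lower genes (log2 ratio -1.54) and gave a laminin-binding median of 1.15. An assumed coefficient of variation of 0.4 left 2 of the genes lower past 1, and over all genes 243 higher and 571 lower past 1.5 in place of 390 and 805. With the longest transcript as gene length, laminin-binding subunits made up 72.1% of the senescent α level, RGD-binding subunits 39.7% of the control level, and collagen-binding subunits 5.93% and 6.76%. The collagen-binding median was -0.29 with at least 100 reads. Of 150 alternative values for single genes, 128 kept their call or stayed within the counting interval, 20 moved outside it, 1 gained a call (Tln2) and 1 lost it (Itgb8). Itga5 changed sign in 2 of the 150. No paired analysis was possible because each condition has 1 library, and the variation between cultures was not measured.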
